A study of Mus musculus with 282 samples.

Results

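The genes of the proteasome, the large protease that degrades ubiquitin-tagged proteins, were followed through 282 mouse liver libraries. Members were chosen by gene symbol alone: every Psma, Psmb, Psmc, Psmd, Psme, Psmf or Psmg gene with a number that was listed in both deposited tables, with pseudogenes left out. Of 15907 gene rows 48 matched, and 47 of them passed the expression filter, which asked that a gene average 1 RPM or more across all libraries of its table (RPM is reads per M reads, where M stands for 10 raised to 6). The exception was Psma8, an α-type subunit known from testis, with means of 0.577 RPM and 0.442 RPM in the first and second table.

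All mice were male, of the C57BL/6J strain, housed singly under 12 h of light and 12 h of dark. They were wild type (WT), whole-body Bmal1 knockouts (BMKO), knockouts of Tsc1 (TSKO) or of Raptor (RPKO) in the liver only, or Albumin-Cre controls (AC), which carry a Cre transgene under a promoter active in hepatocytes. Bmal1 (gene symbol Arntl) is a core transcription factor of the circadian clock, Tsc1 restrains the growth-regulating kinase complex mTORC1, and Raptor is a subunit of that complex. Feeding was restricted to the night (NF), arrhythmic (AF) or ad libitum (LB). Of the 16 arms, 6 were NF arms of WT and BMKO mice left uninjected, given vehicle or given rapamycin, an mTORC1 inhibitor. The AC, TSKO and RPKO arms were NF and uninjected, and 1 WT arm each was AF and LB without injection. The AF WT mice of 2 further arms received AZD8055, an mTOR kinase inhibitor, at dawn or at dusk. The last 3 arms were WT mice given tunicamycin, which blocks N-glycosylation in the endoplasmic reticulum: NF, AF, and AF with AZD8055 at dusk. Each arm but the tunicamycin ones had 3 livers at each of 6 zeitgeber times (ZT, hours after lights on: 2, 6, 10, 14, 18 and 22), and the tunicamycin arms had 4 livers at ZT 4, 10, 16 and 22. No vehicle arm matched AZD8055 or tunicamycin among the samples used here.

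Depth ran from 0.706 to 14.3 M reads in the first table (13 arms) and from 4.85 to 10.1 M in the second (tunicamycin). Of the 282 libraries 12 correlated under 0.93 with the mean of the others of their arm and time, 8 of them in the vehicle and rapamycin arms, and each count of daily mean calls that moved by over 1.5 times without them is given both ways. An earlier analysis of these data found that the LB libraries of replicate 3 at ZT 10 and ZT 14 resembled each other's time, and without them 7 members were rhythmic under LB, 4 of the 7 called with all libraries and 3 others, and 32 in place of 30 differed from NF. The hepatocyte markers Alb, Apoa1, Ttr, Cps1, Serpina1a, Tat, Cyp3a11 and Pck1 together held 25560 to 106500 RPM in every library. Arntl ranged from 0.178 to 26.9 RPM in uninjected NF WT livers and from 6.16 to 17.2 RPM in the uninjected BMKO livers, so the 3′ reads did not mark the deletion. Tsc1 had a median of 7.69 RPM in TSKO against 15.2 RPM in AC, and Rptor 4.57 RPM in RPKO against 8.65 RPM in AC. In whole liver, fewer cells of a type and less RNA per cell cannot be told apart.

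The proteasome has a barrel, the 20S core, made of outer rings of α subunits and inner rings of β subunits, of which Psmb5, Psmb6 and Psmb7 carry the protein-cutting sites. Under interferon signalling Psmb8, Psmb9 and Psmb10 take the places of Psmb5, Psmb6 and Psmb7 to form the immunoproteasome, which is abundant in leukocytes. A 19S particle caps the core: its base holds a ring of ATPases (Psmc genes) that unfold substrates, and its lid (Psmd genes) removes ubiquitin. The PA28 and PA200 caps, the PI31 protein and a set of assembly chaperones complete the family. In many cells the subunit genes are known to be induced together by the transcription factor Nrf1 (gene Nfe2l1) through antioxidant response elements when proteasome activity is short. In liver the proteasome is part of the protein turnover that accompanies the daily cycle of feeding and fasting.

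Promoter sequences from RefSeq (GRCm38.p6), each running from 250 bases before to 50 bases after a transcription start, were found for 40 of the 47 tested genes, as 43 promoters. The core of the antioxidant response element, TGACNNNGC on either strand, occurred in 14% of these promoters (6 of 43), against 12.4% of all 32851 promoters. The E-box CACGTG, the preferred site of clock factors and a palindrome that reads the same on both strands, occurred in 9.3% (4 of 43: Psmd9, Psmb10, Psma4 and Psme3) against 7.15%. CCAAT, searched on both strands, occurred in 30.2% against 37.4%. Matches of different motifs could overlap and were counted separately. Windows of 80 bases from 3 promoters are shown, those of the catalytic subunits Psmb5 and Psmb6 with the antioxidant response element core in capitals and that of Psmb10, the immune subunit with the most widely called rhythm, with the E-box in capitals. They lie at chr14:54617999-54618078 (minus strand), chr11:70525277-70525356 (plus strand) and chr8:105938466-105938545 (minus strand).
Psmb5: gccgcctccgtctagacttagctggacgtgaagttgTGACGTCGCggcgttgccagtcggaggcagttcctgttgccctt
Psmb6: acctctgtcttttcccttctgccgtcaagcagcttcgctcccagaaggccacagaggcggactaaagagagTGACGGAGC
Psmb10: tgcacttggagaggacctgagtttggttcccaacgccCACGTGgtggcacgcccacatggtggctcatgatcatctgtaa
A match is a stretch of letters and not evidence of binding, and the members' promoters held each motif at about the share of all promoters.

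Because each transcript is read once from its 3′ end, RPM carries no length factor and levels of different genes can be set beside each other. The most abundant member over the first table was Psma7, an α-ring subunit, at a mean of 294.8 RPM, followed by the β-ring subunit Psmb4 (246.4 RPM) and the lid subunit Psmd11 (196.1 RPM). The 7 assembly chaperones lay between 13.5 RPM (Psmg1, the lowest tested member) and 27.1 RPM (Psmd9). The constitutive catalytic subunits were unequal: Psmb7 had 135.3 RPM and Psmb6 119.4 RPM, but Psmb5 only 33.4 RPM. The immune subunits stood at 25.1 RPM (Psmb8), 18.4 RPM (Psmb10) and 15.9 RPM (Psmb9). Summed over the 47 genes, an uninjected NF WT liver held 3706 to 4250 RPM, with a median of 3954 RPM. Medians of the other arms lay between 3464 RPM (NF with tunicamycin) and 4463 RPM (uninjected BMKO).

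The immune subunits stayed a minor share in every arm. Their summed RPM divided by that of Psmb5, Psmb6 and Psmb7 had a median between 0.161 (BMKO with rapamycin) and 0.277 (TSKO). Psmb9 was the most variable of the 3 within an arm: in uninjected NF WT livers its lowest, median and highest levels were 2.92, 13.3 and 24.0 RPM. Psmb10 ranged from 9.44 to 28.5 RPM there, with a median of 16.1 RPM. In AC livers Psmb8 ranged from 21.4 to 32.0 RPM. In the GENCODE annotation of GRCm38.p6 the 3′ ends of Psmd1, Psme2b and Psmg3 lie within another gene model on the same strand, and those of Psmb7, Psmc3 and Psme1 within a gene on the opposite strand. Whether the counting used strand is not given in the sources used here, so reads of these 6 genes may be shared with a neighbour. In all, 12 members overlap another coding gene, among them Psmd9 (Hpd) and Psmb9 (Tap1), both on the opposite strand. Whether the 3′ end of a neighbour lies within a member was not checked, so members beyond these 6 may hold reads of a neighbour.

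**Figure D1:**
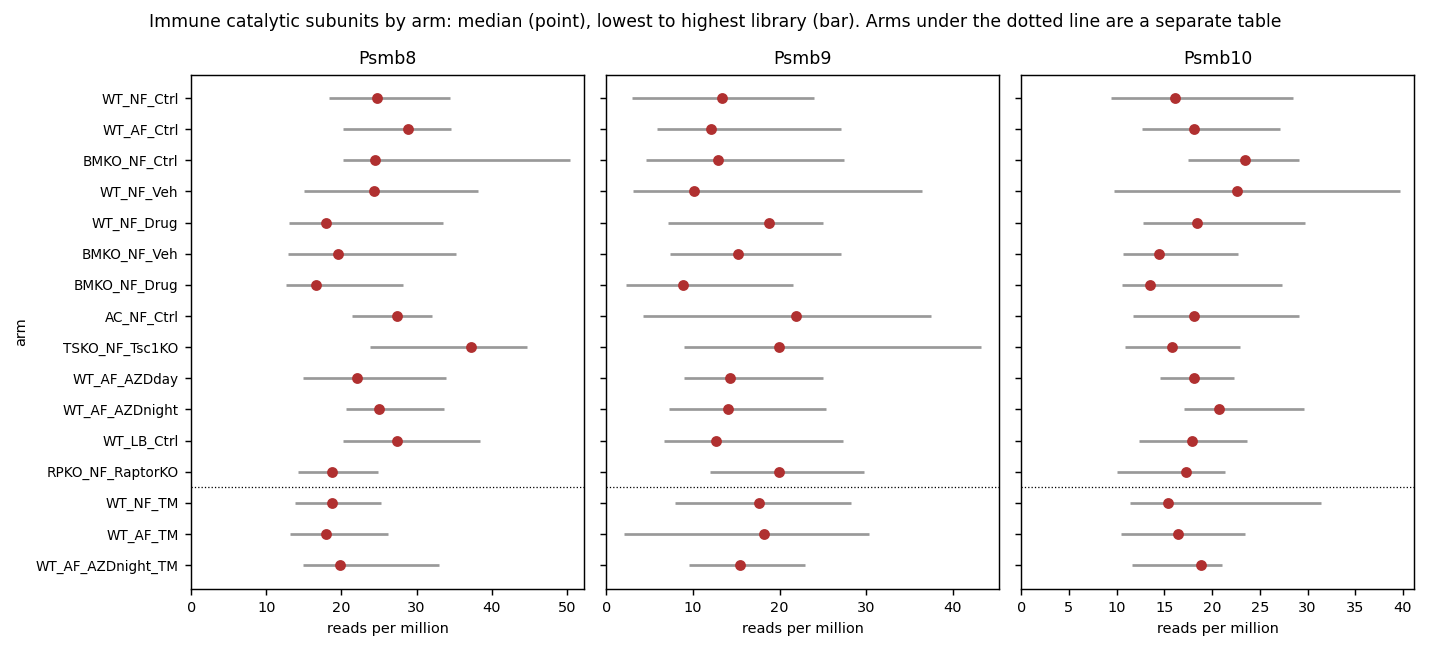
Levels (RPM) of the immune subunits Psmb8, Psmb9 and Psmb10 in the 16 arms; points are medians over the libraries of an arm (18, or 16 with tunicamycin) and lines run from the lowest to the highest library. Psmb8 is highest in TSKO (median 37.2 RPM), while Psmb9 spans a wide range within most arms; arms under the dotted line come from the separately scaled second table.

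Levels averaged over the day were compared between arms with limma, on log2(RPM + 0.5) after TMM scaling, with p-values adjusted by Benjamini-Hochberg over all genes tested and a threshold of 0.05. A value written as a log2 difference is on this scale, with its standard error (SE) where given. Members were called in both directions in each comparison but AF against NF with tunicamycin, which had 1 call. The median log2 difference over the 47 genes lay between -0.06 and 0.09 in the 12 comparisons. Psma4 and Psma7 were each called in 8 of these 12 comparisons.

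**Figure D2:**
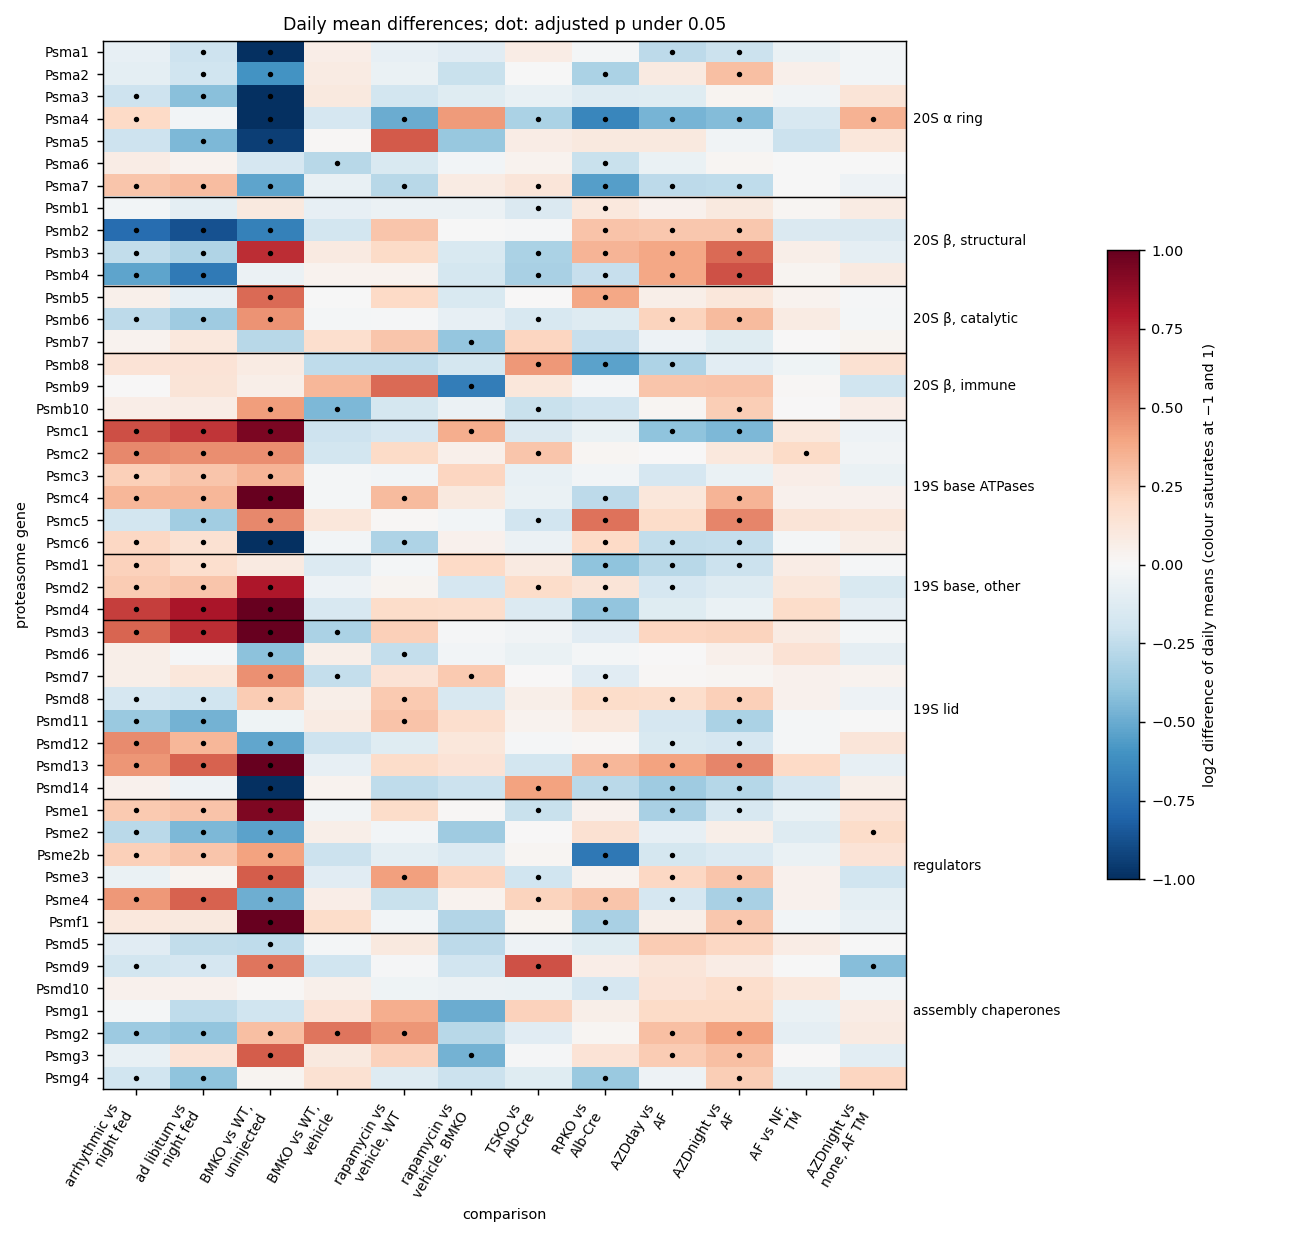
Daily mean differences (log2, colour, saturating at 1 in either direction) of the 47 tested proteasome genes, grouped by role, in 12 comparisons; a dot marks an adjusted p under 0.05. Called rises and falls stand side by side in each column but AF against NF with tunicamycin, the tunicamycin columns hold 4 dots in all, and the uninjected BMKO column has the strongest colours.

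The feeding comparison asked how levels differ when food is spread over the day. With AF against NF, 16 of the 47 members were higher and 11 lower. Over all 12443 genes 23.9% were higher and 20% lower, and whether the members' shares differ from these was not tested. The directions were uneven by subcomplex. Of the 17 subunits of the 19S particle 11 were higher and 2 lower, with a median log2 difference of 0.24, and of the 17 subunits of the 20S core 2 were higher and 5 lower, with a median of -0.02. The median over all genes was 0.02.

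Among the base ATPases 5 of 6 were higher under AF and the other did not pass. Psmc1 had lowest, median and highest levels of 100.7, 133.6 and 180.3 RPM under NF and of 136.1, 214.5 and 257.3 RPM under AF. The AF livers lay mostly above the NF livers, with a small overlap, and the log2 difference was 0.65 ± 0.07 (SE, adjusted p = 1.81e-10, limma). Psmc2, its neighbour in the ring, went from a median of 86.2 RPM to 112.0 RPM (log2 difference 0.48, adjusted p = 2.06e-09, limma). All 3 non-ATPase base subunits were higher: Psmd4, a receptor for ubiquitin chains, had 63.7, 97.4 and 143.0 RPM under NF and 95.1, 153.3 and 227.4 RPM under AF. Its log2 difference was 0.69 ± 0.09 (adjusted p = 1.36e-08, limma). In the lid, 3 of 8 were higher, among them Psmd12 (73.1 RPM against 52.9 RPM), and 2 lower. Psmd11, which bridges lid and core, was lower, at a mean of 200.6 RPM against 261.8 RPM (log2 difference -0.37, adjusted p = 2.56e-07, limma).

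The structural β subunits moved the other way, with 3 of 4 lower and the other not past the threshold. Psmb2 had 25.2, 38.5 and 53.8 RPM under NF and 15.6, 21.8 and 27.0 RPM under AF, a log2 difference of -0.76 ± 0.07 (adjusted p = 3.65e-12, limma). Only the lowest NF libraries fell within the AF range. Psmb4 went from a mean of 291.9 RPM to 200.7 RPM (log2 difference -0.53). Of the constitutive catalytic subunits Psmb6 was lower (106.9 RPM against 128.6 RPM, adjusted p = 6.59e-05, limma), while Psmb5 and Psmb7 differed by 0.05 and 0.03 on the log2 scale and did not pass. None of the 3 immune subunits passed, with adjusted p from 0.176 to 0.993 (limma). Psme1 and Psme2, partners in the PA28 cap, were called in opposite directions, at log2 differences of 0.26 and -0.27. The PA200 cap gene Psme4 was higher (118.9 RPM against 88.1 RPM). Of 7 assembly chaperones 3 were lower and 4 did not pass.

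Under LB, compared with the same NF livers, 15 members were higher and 15 lower, against 28.5% and 24.4% of all genes. The 19S particle had 11 higher and 3 lower of 17, and the 20S core 1 higher and 8 lower of 17. For Psmb2, Psmc1 and Psme4 no LB library overlapped any NF library, and how many of all genes did so was not counted. Psmb2 had a median of 20.01 RPM under LB (range 17.8 to 24.8 RPM), with a log2 difference of -0.87 ± 0.07 (adjusted p = 1.98e-14, limma). Psmc1 lay between 182.2 and 263.7 RPM under LB, and Psme4 between 115.2 and 151.9 RPM. Psmd11 was again below the NF level, at a mean of 186.2 RPM, and so was Psme2, at 37.4 RPM against 51.4 RPM. Of the calls, 18 of 27 under AF and 24 of 30 under LB stayed under every alternative tried.

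Both feeding comparisons rest on the same 18 uninjected NF WT libraries, and these differed from the other NF arms with an intact clock for several of the genes just named. The daily mean of Psmd4 was 96.8 RPM there, 177.4 RPM in NF WT livers with vehicle and 150.0 RPM in AC livers. Psmc1 had 136.8 RPM against 212.7 and 190.3 RPM, Psmb2 37.9 RPM against 26.0 and 23.4 RPM, and Psmd11 261.8 RPM against 174.7 and 172.4 RPM. Injection and genotype differ between these 3 arms, and what part a batch has in the feeding differences was not tested. The ratio of summed 20S to summed 19S reads ran from 0.909 to 1.40 in the uninjected NF WT libraries (median 1.10), against 0.823 to 1.18 with vehicle (median 0.906) and 0.832 to 1.12 in AC (median 0.945). Under AF its median was 0.918 and under LB 0.849.

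The genotype comparison asked what loss of Bmal1 does to the level of these genes, and it was available without injection and with vehicle. In uninjected livers 22 members were higher in BMKO and 14 lower, against 34.3% and 37.5% of all genes. Of the 7 tested α-ring subunits 6 were lower and 1 did not pass, with a median log2 difference of -0.94. Psma4 had 89.7, 110.4 and 165.0 RPM in WT and 23.2, 40.8 and 70.9 RPM in BMKO, a log2 difference of -1.63 ± 0.17 (adjusted p = 5.02e-14, limma). Psma3 had 71.9, 90.3 and 116.3 RPM in WT and 18.6, 34.1 and 47.6 RPM in BMKO. The groups did not overlap for either gene. They also did not overlap for 6 further members: Psmc4, Psmc6, Psmd2, Psmd4, Psmd13 and Psme1. How many of all genes did not overlap was not counted, so this count does not set the members apart from other genes.

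Within the 19S particle 11 of 17 were higher and 4 lower in uninjected BMKO livers. Among the ATPases Psmc4 was higher (median 118.8 RPM against 54.9 RPM) and Psmc6 lower (31.8 RPM against 78.6 RPM, log2 difference -1.26 ± 0.10, adjusted p = 9.52e-20, limma). Psmd4 had 191.0 to 304.7 RPM in BMKO, above every uninjected WT library. The WT libraries of this comparison are those of the feeding comparisons, which differed from the other NF arms with an intact clock, also for Psmd4. What part this WT arm has in the uninjected genotype differences was not tested. In the lid Psmd3 was higher (179.5 RPM against 71.5 RPM), while Psmd14, the deubiquitinase of the lid, was lower (34.9 RPM against 76.4 RPM). Psmb5 and Psmb6 were higher, at log2 differences of 0.57 and 0.45 (adjusted p = 2.36e-08 and 4.99e-06, limma). Psmb10 was higher, at 23.1 RPM against 17.8 RPM. Psme1 was higher and its partner Psme2 lower, at log2 differences of 0.93 and -0.54. Psmf1, which encodes PI31, was higher, at 57.0 RPM against 24.6 RPM.

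With vehicle, 1 member was higher in BMKO and 4 lower, against 9.91% and 11.8% of all genes. Psmg2, an assembly chaperone, had 8.55, 14.5 and 18.5 RPM in WT and 15.7, 19.98 and 28.3 RPM in BMKO, a log2 difference of 0.53 ± 0.10 (adjusted p = 2.66e-05, limma), and it was the only member called under every alternative. Psmb10 was lower, at a mean of 15.4 RPM against 21.5 RPM (adjusted p = 7.37e-04, limma), the opposite of its direction without injection. Psma6, Psmd3 and Psmd7 were also lower. Psma4 had medians of 114.1 RPM in WT and 114.8 RPM in BMKO, and Psmd4 170.3 and 141.2 RPM, neither past the threshold.

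The genotype results from the separate sets of livers thus differed in size and often in sign. The median absolute log2 difference over the 47 genes was 0.52 without injection, with values from -1.63 to 1.35, and 0.09 with vehicle, with values from -0.45 to 0.53. Of the 36 members called without injection 12 had the same sign with vehicle. Members called in both numbered 4, and 1 of these had the same sign. Whether the genotype difference itself differs between the injected and uninjected livers was not tested. In the uninjected BMKO libraries the share of reads from mitochondrial genes was 3.95% to 10.6%, below all WT libraries beside them (13.4% to 21.1%), whereas with vehicle it was 9.503% to 17.5% in BMKO and 13.2% to 18.8% in WT. The 20S to 19S ratio of the uninjected BMKO libraries, 0.426 to 0.877, lay below all uninjected WT libraries. Markers of other cells were also lower without injection: 8 of 12 Kupffer markers were lower and 2 higher, 4 of 6 leukocyte markers lower, 4 of 7 sinusoidal endothelial markers lower and 2 higher, and 3 of 5 stellate markers lower and 1 higher. The Kupffer sum ran from 134.6 to 469.0 RPM in BMKO and from 143.5 to 462.3 RPM in WT, and the stellate sum from 82.4 to 226.5 RPM against 243.2 to 352.4 RPM. The leukocyte sum ran from 22.6 to 85.9 RPM against 34.1 to 131.3 RPM, and the endothelial sum from 108.3 to 189.8 RPM against 162.4 to 259.0 RPM. The hepatocyte sum, 37230 to 49560 RPM in uninjected BMKO, lay below all uninjected WT libraries (64230 to 86610 RPM). With vehicle the sums were likewise apart, at 29060 to 59960 RPM in BMKO and 61340 to 104500 RPM in WT. Of 8 hepatocyte markers 3 were lower and 2 higher without injection. Of 2 cholangiocyte markers 1 was higher and 1 lower, and their sum ran from 39.65 to 80.75 RPM in BMKO against 9.902 to 43.79 RPM in WT. No marker of these lists was at 0 throughout either arm. The part of these differences between libraries in the uninjected genotype result was not tested. Without the 12 libraries that stood apart from their own group, of which 1 vehicle WT library (ZT 14 replicate 3) and 3 vehicle BMKO libraries (replicate 1 at ZT 14, 18 and 22) enter this comparison, 5 members were higher and 14 lower with vehicle.

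**Figure D3:**
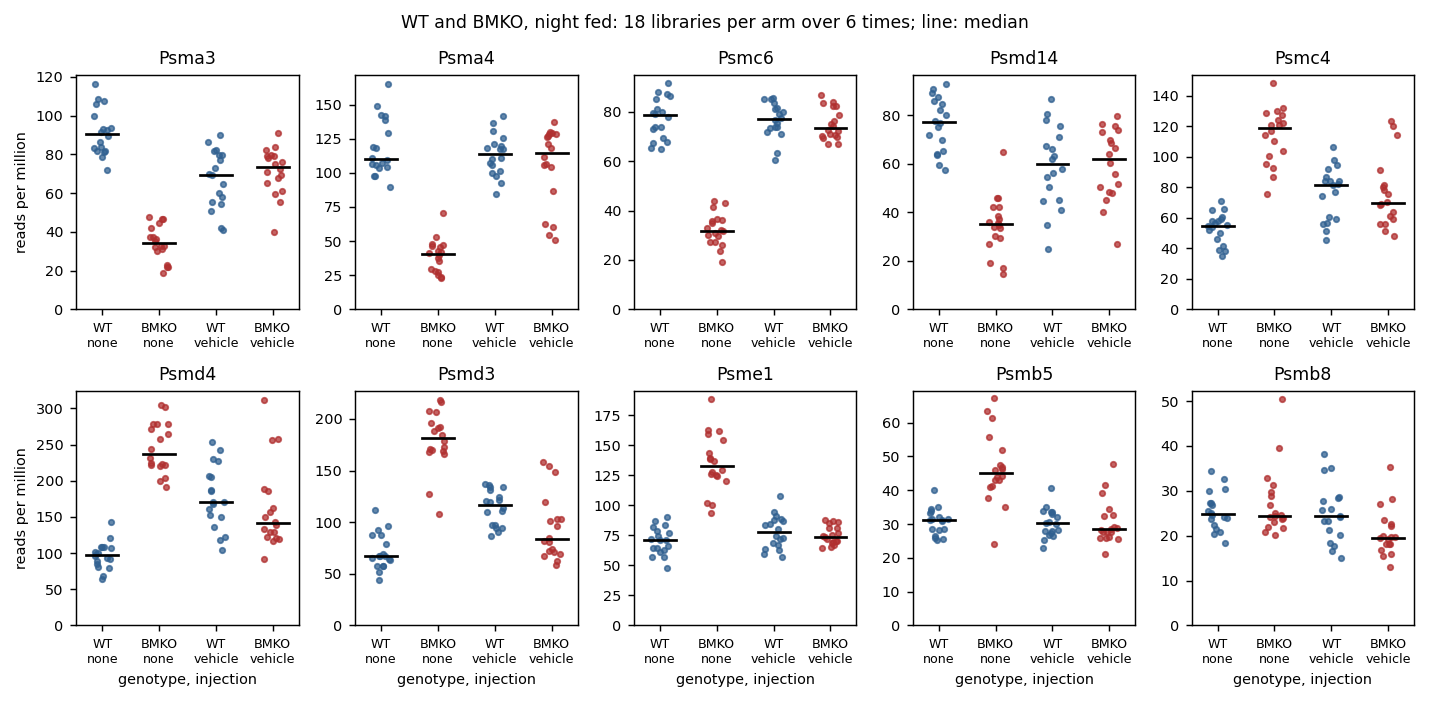
Levels (RPM) of 10 proteasome genes in uninjected and vehicle-injected NF livers of WT and BMKO mice. Each point is 1 of 18 libraries per arm and lines mark medians. Without injection the genotypes separate for genes such as Psma4 (medians 110.4 and 40.8 RPM), whereas with vehicle they lie over each other (114.1 and 114.8 RPM).

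Rapamycin was compared with vehicle in each genotype under NF. In WT livers 5 members were higher and 4 lower, against 9.73% and 8.73% of all genes. Psme3, the nuclear PA28 subunit, had 17.8, 26.5 and 37.7 RPM with vehicle and 31.1, 36.1 and 41.9 RPM with rapamycin, a log2 difference of 0.41 ± 0.08 (adjusted p = 9.05e-05, limma). Psmg2 was higher (19.3 RPM against 14.2 RPM, log2 difference 0.44, adjusted p = 0.00106, limma) and was called under every alternative. Psmd11, Psmd8 and Psmc4 were higher at log2 differences of 0.29, 0.26 and 0.32. Psma4, Psma7, Psmc6 and Psmd6 were lower, and Psma4, Psma7 and Psmd6 lost their calls when the shallowest library, NF WT with rapamycin at ZT 22 replicate 1 (0.706 M reads), was left out with the other shallow ones. Without replicate 1 the differences of Psma4 and Psma7 turned from -0.50 and -0.28 to 0.05 and 0.01. Without replicate 1, 11 members were higher and 0 lower. Leaving out the shallow libraries gave 7 higher and 1 lower, and leaving out the 12 libraries apart from their group gave 12 higher and 1 lower.

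In BMKO livers rapamycin gave 2 members higher and 3 lower, against 6.32% and 5.55% of all genes. Psmg3 was lower (19.02 RPM against 25.86 RPM), as were Psmb9 (10.3 RPM against 15.5 RPM, adjusted p = 0.0363, limma) and Psmb7 (108.2 RPM against 132.1 RPM). Psmc1 and Psmd7 were higher. Each of these 5 calls was lost without the 12 libraries apart from their group, when 1 other member was called, and the count fell to 0 without replicate 1, so the BMKO calls depend on which libraries enter. Without the 3 libraries under 3 M reads 3 members were higher and 7 lower.

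The response to rapamycin itself was compared between genotypes as a difference of differences. It was more positive in BMKO than in WT for 2 members and more negative for 8, against 7.83% and 6.37% of all genes. The more negative ones were the chaperones Psmg1, Psmg2 and Psmg3, the catalytic subunits Psmb5, Psmb7 and Psmb9, the α subunit Psma5 and the lid subunit Psmd8. Psmb9 was 0.56 log2 units higher with rapamycin in WT, which did not pass, and 0.69 lower in BMKO, a difference of -1.25 ± 0.33 (adjusted p = 0.00606, limma). Psma4 and Psmc1 had positive differences, of 0.93 and 0.53. Each of these 10 calls was lost without replicate 1, when 1 other member was called and the value of Psma4 went to -0.01.

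The liver knockouts asked how a chronic rise or loss of mTORC1 activity relates to the same genes, both against AC livers. In TSKO 7 members were higher and 9 lower, against 18.6% and 17.9% of all genes. Psmd9, an assembly chaperone of the base, had 19.4, 23.0 and 29.7 RPM in AC and 26.2, 36.1 and 47.1 RPM in TSKO, a log2 difference of 0.63 ± 0.07 (adjusted p = 2.46e-10, limma). The highest AC libraries overlapped the lowest TSKO ones. The immune subunit Psmb8 was higher, with 21.4, 27.4 and 32.0 RPM in AC and 23.9, 37.2 and 44.7 RPM in TSKO (log2 difference 0.43, adjusted p = 5.95e-06, limma). Psmb10 was lower by 0.22 (adjusted p = 0.0413, limma), a call lost without the libraries apart from their group and without replicate 1 or 2, and Psmb9 had 21.6 and 23.0 RPM. Of the structural β subunits 3 of 4 were lower, with Psmb4 at 180.2 RPM against 225.1 RPM. Psmd14 was higher (81.1 RPM against 62.7 RPM). Psmb6 was lower by 0.16, and Psmb5 had means of 31.5 and 31.3 RPM.

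In RPKO 10 members were higher and 15 lower, against 19.3% and 23% of all genes. Mitochondrial genes held 22.7% to 30.2% of reads in RPKO, above all AC libraries (14.99% to 19.2%). The part of this in the RPKO differences was not tested. The α ring again had calls in 1 direction, with 4 of 7 lower and 3 that did not pass. Psma7 had 237.7, 299.6 and 358.0 RPM in AC and 167.6, 205.5 and 233.9 RPM in RPKO, so that no library overlapped, with a log2 difference of -0.55 ± 0.05 (adjusted p = 1.27e-12, limma). Psma4 was at 76.3 RPM against 119.3 RPM. Psmb8 had 14.2, 18.8 and 24.9 RPM in RPKO, mostly below AC (log2 difference -0.53, adjusted p = 6.49e-08, limma). The catalytic subunit Psmb5 was higher, with 33.6, 40.8 and 49.8 RPM against 27.8, 31.5 and 37.3 RPM (log2 difference 0.39, adjusted p = 6.22e-08, limma). The ATPase Psmc5 was higher (60.9 RPM against 42.1 RPM). Psme2b, a near copy of Psme2 whose reads may be shared with it, was lower (23.5 RPM against 38.6 RPM). Of the calls, 7 of 16 in TSKO and 13 of 25 in RPKO stayed under every alternative.

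Markers of other liver cells were read beside the immune subunits. Of 12 Kupffer cell markers 2 were lower in TSKO and 4 higher in RPKO, and the others did not pass. Their summed level ran from 218.2 to 468.6 RPM in AC, from 169.3 to 367.1 RPM in TSKO and from 258.6 to 432.0 RPM in RPKO. Of 6 tested leukocyte markers 5 were higher in RPKO, where their sum ran from 54.7 to 130.6 RPM against 45.8 to 102.2 RPM in AC. No marker of either list was at 0 throughout an arm. Psmb8 was thus higher in TSKO without called rises of Kupffer markers and lower in RPKO beside called rises of leukocyte markers, and the part of those cells in the Psmb8 level was not tested. Other genes of antigen presentation moved in both directions in TSKO: the class I genes H2-D1 and B2m were higher, at log2 differences of 0.92 and 0.55, and H2-K1 and the peptide transporter Tap1 lower, at -1.02 and -0.38.

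AZD8055 was given to AF mice and compared with uninjected AF mice, so injection and drug cannot be told apart. Mitochondrial genes held 10.03% to 14.55% of reads with the dusk injection, below all uninjected AF libraries (14.73% to 20.58%). With the dawn injection they held 10.54% to 16.86%. The part of this in the differences was not tested. With AZD8055 at dawn 9 members were higher and 13 lower, against 20.8% and 20.2% of all genes. With AZD8055 at dusk 16 were higher and 11 lower, against 26.8% and 23.9%. In both, 3 of 4 structural β subunits were higher and the other did not pass. Psmb4 had 169.2, 195.2 and 234.3 RPM in AF, 181.7, 259.8 and 340.1 RPM with the dawn injection and 208.2, 303.3 and 411.3 RPM with the dusk injection, at log2 differences of 0.39 and 0.64 (adjusted p = 7.31e-05 and 5.17e-09, limma). The 3 ranges overlap, and the dusk livers are mostly above the AF livers. Psmb3 had a mean of 64.1 RPM in AF, 84.0 RPM with the dawn and 95.9 RPM with the dusk injection. Psmb6 was 106.9 RPM in AF, 125.1 RPM and 134.0 RPM.

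Of the α subunits 3 were lower with the dawn injection, and 3 lower and 1 higher with the dusk injection. Psma4 went from 137.2 RPM to 98.9 and 103.0 RPM. The 19S particle had 2 higher and 6 lower at dawn and 4 higher and 6 lower at dusk. Psmd14 was lower in both (78.4 RPM in AF, 61.4 and 64.98 RPM), and Psmd13 higher in both (89.4 RPM, 119.4 and 126.3 RPM). Psme1 was lower in both, by 0.33 and 0.16 on the log2 scale. Psmb8 was lower with the dawn injection (22.58 RPM against 27.98 RPM, adjusted p = 6.34e-04, limma) and did not pass with the dusk one, while Psmb10 was higher with the dusk injection (21.5 RPM against 18.2 RPM) and did not pass with the dawn one. The difference between the injection times was not tested. Of 12 Kupffer markers 4 were higher with the dawn and 6 with the dusk injection, and the others did not pass. Their sum ran from 244.6 to 566.7 RPM and from 240.9 to 558.4 RPM, against 233.6 to 405.1 RPM in AF. Of 6 leukocyte markers 3 were higher and 2 lower with either injection, and their sum ran from 52.8 to 329.5 RPM at dawn and 51.2 to 437.2 RPM at dusk, against 45.7 to 108.5 RPM. Of 7 endothelial markers 4 were higher with either, and 2 lower at dusk. Of 13 genes of antigen processing and interferon response 8 were lower and 2 higher at dawn, and 7 lower and 2 higher at dusk. The part of these cells in the levels of Psmb8 and Psme1 was not tested. Of the calls, 11 of 22 at dawn and 17 of 27 at dusk stayed under every alternative. Without replicate 1 the dusk count became 10 higher and 11 lower.

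Between the tunicamycin arms few members differed in their daily mean. AF against NF, both with tunicamycin, gave a call for 1 member, against 0.245% of 12261 genes higher and 0.31% lower. It was Psmc2, higher at 94.8 RPM against 83.5 RPM, with the same sign at 3 of 4 times and a log2 difference of 0.19 (adjusted p = 0.0415, limma). The call was lost with DESeq2 size factors. Adding AZD8055 at dusk gave 2 higher and 1 lower, against 4.19% and 4.66%. Psmd9 had 34.7, 48.2 and 57.1 RPM in AF with tunicamycin and 28.7, 33.8 and 40.5 RPM with both agents, a log2 difference of -0.42 ± 0.07 (adjusted p = 1.99e-05, limma) that stayed under every alternative. Psma4 and Psme2 were higher at log2 differences of 0.35 and 0.18. The Psma4 call was lost with no filter, with edgeR and without replicate 2, 3 or 4, and the Psme2 call without replicate 1, 3 or 4. The 6 catalytic subunits did not pass in either comparison, with absolute log2 differences of at most 0.20.

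Rhythm was tested in each arm alone, as a joint limma test of 24 h cosine and sine terms. Amplitude is the log2 distance from mean to peak. Across the 16 arms 67 rhythms of members were called, in 25 of the 47 genes. In the uninjected NF WT arm 8 members were rhythmic, against 21.8% of all genes. The counts were 5 in AC (23.2%), 6 in TSKO (24.3%), 6 in RPKO (17.5%), 7 under LB (16.4%) and 2 under AF (7.92%). They were 1 in WT with vehicle (14.9%), 1 in WT with rapamycin (5.08%) and 3 in AF with AZD8055 at dusk (19.6%). With tunicamycin they were 11 under NF (15%), 6 under AF (7.52%) and 11 under AF with AZD8055 (21.2%). Among genes whose mean level lay within the members' range, the share called was 28.5% in uninjected NF WT livers, where 17.02% of the members were called. It was 20% and 10.3% in NF and AF with tunicamycin, where 23.4% and 12.8% of the members were called, and in the other 14 arms the members' share was below that of these genes. The median amplitude of the members was 0.14 in uninjected NF WT livers, against 0.20 for genes of like level and 0.22 for all genes. It was below that of genes of like level in 14 arms, and above it in AF without tunicamycin (0.135 against 0.132) and with it (0.142 against 0.132). Under LB the values were 0.135 and 0.138, so the members lay close to those genes there.

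In 4 arms limma called 0 members: uninjected BMKO (5.54% of all genes), BMKO with vehicle (5.48%), BMKO with rapamycin (0.273%) and AF with AZD8055 at dawn (20.9%). At an unadjusted p under 0.05 these arms had 6, 6, 1 and 7 members. edgeR on the recovered reads also called 0 in each, and limma with DESeq2 size factors called 1, 0, 0 and 0. With the replicate number as a block limma called 1, 7, 0 and 3, though the numbers were no pairing by the rule used. In BMKO with vehicle, deviations of same-numbered libraries had a median correlation of 0.54, against -0.41 for libraries of different numbers. In every other arm too this median was higher for libraries of the same number. With the block, calls appeared in each of the 4 arms but BMKO with rapamycin, so their 0 calls depend on leaving it out.

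The peaks of the called rhythms were spread over the day. Of 38 called rhythms of 19S subunits 29 peaked between ZT 0 and 6, 4 between ZT 6 and 12 and 5 between ZT 18 and 24. Of 20 called rhythms of 20S subunits 2 peaked between ZT 0 and 6, 13 between ZT 6 and 12 and 5 between ZT 12 and 18. The other 9, of caps and chaperones, were spread, with 5 between ZT 18 and 24. The same gene counts once for each arm in these numbers: Psmb10 gave 7 of the 20S calls, and Psmd11 and Psmc2 gave 9 and 6 of the 19S calls. Peak times of all called genes were not counted, so these numbers do not set the members apart from other rhythmic genes.

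**Figure D4:**
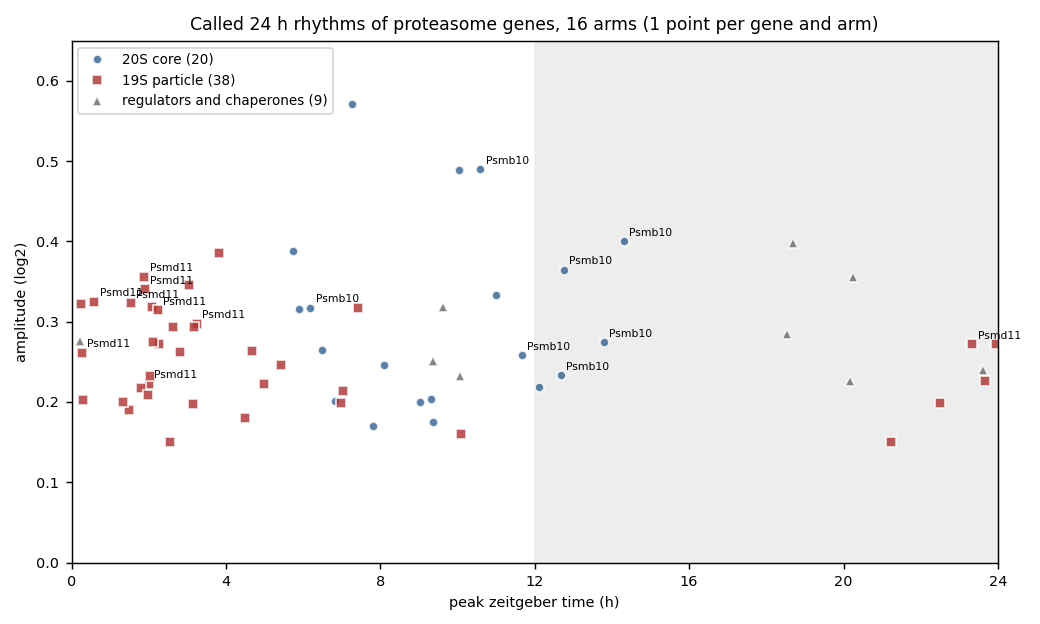
Peak time (ZT, hours) and amplitude (log2) of the 67 called member rhythms in 16 arms, coloured by 19S particle (38), 20S core (20) and other members (9), with Psmd11 and Psmb10 named. The 19S points gather near the start of the light phase and the 20S points near its end.

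Psmd11, the lid subunit at chr11:80428615-80473248 (plus strand), was the most widely rhythmic member, called in 9 of 16 arms with amplitudes of 0.22 to 0.36. Its mean peak over all 16 arms, called or not, was at ZT 1.62. In uninjected NF WT livers its replicates were 304.6, 343.3 and 297.6 RPM at ZT 2, and 221.9, 203.3 and 203.6 RPM at ZT 10. They were 228.1, 203.9 and 183.3 RPM at ZT 14 and 308.0, 322.5 and 257.3 RPM at ZT 22. All ZT 2 libraries were above all ZT 10 and ZT 14 libraries, with means of 315.2 ± 24.6 RPM at ZT 2 and 205.1 ± 22.4 RPM at ZT 14 (SD, n = 3). The amplitude was 0.33, with a peak at ZT 0.59 (adjusted p = 0.00679, limma). Psmd11 was also rhythmic under AF (amplitude 0.26, peak ZT 0.26), LB (0.22, ZT 1.999), with vehicle (0.36, ZT 1.89), with rapamycin (0.30, ZT 3.24), and in AC (0.34, ZT 1.89) and RPKO (0.31, ZT 2.23). Its calls with vehicle and with rapamycin were each lost without replicate 1, 2 or 3. How many of all genes were called in as many arms was not counted.

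Psmc2, the ATPase at chr5:21785283-21803787, was called in 6 arms, and its mean peak over all 16 arms was at ZT 1.29. In AC livers it had 122.0, 112.5 and 106.4 RPM at ZT 2 and 78.4, 73.0 and 69.0 RPM at ZT 14, with no overlap between these times, and an amplitude of 0.32 (adjusted p = 0.00422, limma). Further 19S subunits rhythmic around the start of the light phase were Psmd1 in 4 arms, and Psmd4, Psmd7, Psmd14 and Psmd2 in some. In NF livers with tunicamycin Psmd14 had 48.8, 51.0, 59.98 and 64.9 RPM at ZT 4 and 33.4, 31.8, 31.0 and 34.0 RPM at ZT 16, an amplitude of 0.39 with a peak at ZT 3.83 (adjusted p = 1.68e-04, limma).

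Psmb10, the immune subunit at chr8:105935735-105938444 (minus strand), was called in 7 arms with amplitudes of 0.23 to 0.49. Its calls under AF and LB were lost with no filter and with edgeR. Its mean peak over all 16 arms, called or not, was at ZT 12.0. In uninjected NF WT livers it had 21.7, 26.3 and 22.5 RPM at ZT 10 and 9.44, 9.79 and 16.3 RPM at ZT 22. These did not overlap, and the mean went from 23.5 ± 2.45 RPM at ZT 10 to 11.8 ± 3.85 RPM at ZT 22 (SD, n = 3). The amplitude was 0.49 with a peak at ZT 10.6 (adjusted p = 0.00499, limma). In AC livers it was 26.5, 20.6 and 23.3 RPM at ZT 14 and 14.7, 14.9 and 11.7 RPM at ZT 2, with a peak at ZT 12.8. Psmb9 was rhythmic in the uninjected NF WT, RPKO and NF tunicamycin arms, with peaks at ZT 7.26, 11 and 10.1. Psmb8 and the constitutive catalytic subunits Psmb5 and Psmb7 did not pass in any arm, with smallest adjusted p-values over the 16 arms of 0.113, 0.188 and 0.142 (limma). Psmb6 was called with tunicamycin and AZD8055 together, where it peaked at ZT 8.09.

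In the BMKO arms Psmd11 had amplitudes of 0.11 without injection, 0.20 with vehicle and 0.11 with rapamycin (adjusted p = 0.676, 0.543 and 0.752, limma). Psmb10 had 0.10, 0.05 and 0.22 (adjusted p = 0.721, 0.973 and 0.586, limma). With vehicle its time means in BMKO lay between 14.4 and 16.3 RPM. The rhythm difference between BMKO and WT was not called for either gene, at adjusted p of 0.505 and 0.801 for Psmd11 without injection and with vehicle, and of 0.206 and 0.766 for Psmb10 (limma). A loss of these rhythms in BMKO is therefore not shown.

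**Figure D5:**
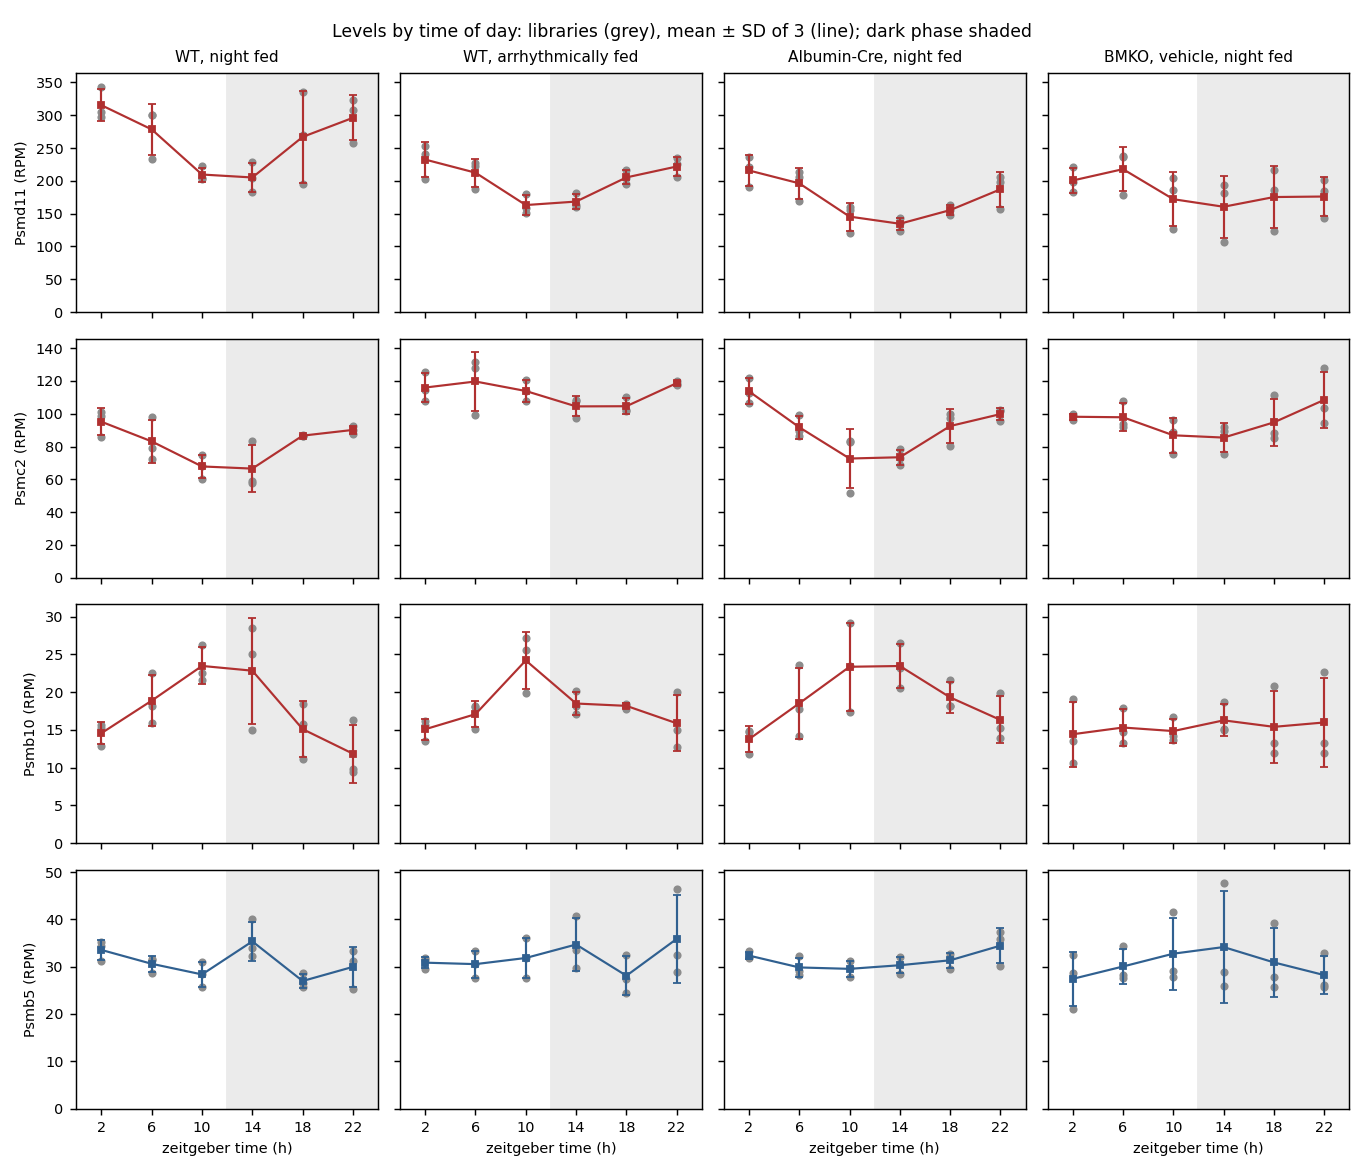
Levels (RPM) of Psmd11, Psmc2, Psmb10 and Psmb5 by zeitgeber time (hours) in 4 arms; grey points are libraries, coloured points and bars are means ± SD of 3, and the dark phase is shaded. Psmd11 and Psmc2 are high around ZT 2 and low around ZT 14 in the uninjected NF WT and Albumin-Cre arms, Psmb10 is high at ZT 10 to 14 there, and Psmb5 was called in no arm.

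Differences in rhythm between arms were called for few members. Against NF, AF had 2 (4.62% of all genes): Psmd14, with peaks at ZT 7.25 under AF and ZT 22.7 under NF (adjusted p = 0.0313, limma), and the nuclear cap gene Psme3, with peaks at ZT 8.92 and ZT 18.5 (adjusted p = 0.0286, limma). LB against NF had Psma1 (0.852% of all genes), and AZD8055 at dawn against AF had Psmd14 (14.7%), which peaked at ZT 23.8. With tunicamycin, AF against NF had Psmb10 (4.36%), peaking at ZT 9.34 against ZT 14.3. In NF livers with tunicamycin Psmb10 was 22.9, 31.4, 20.2 and 21.8 RPM at ZT 16, and in AF ones 20.03, 13.1, 16.8 and 12.3 RPM at that time. Each of these 5 calls was lost when some replicate was left out. Of the arms compared, Psmd14 was called rhythmic in none, Psme3 in NF only and Psmb10 in NF with tunicamycin only. The other peak times given here belong to rhythms that did not pass. limma called 0 members for uninjected and vehicle BMKO against WT (3.05% and 1.74% of all genes) and for rapamycin in WT and BMKO (0% and 0.289%). It also called 0 for TSKO and RPKO against AC (0.00813% and 0%), AZD8055 at dusk (5.72%) and AZD8055 added to tunicamycin (0.0326%). At an unadjusted p under 0.05 these 8 had 1, 2, 0, 10, 1, 0, 5 and 1 members in that order. edgeR called 1 for AZD8055 at dusk and 0 in the other 7, and limma with DESeq2 size factors 0 in all 8.

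The rhythm calls were less stable than those of the daily mean. Of 67 called rhythms 54 stayed under every alternative that kept all replicates, and 4 stayed when each replicate number was also left out in turn: Psmc2 and Psmd14 in NF with tunicamycin, and Psmb3 and Psmd1 in AF with tunicamycin and AZD8055. Of 206 daily mean calls 186 and 126 stayed by the same measures.

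Other genes of the pathway, a list of 28 ubiquitin, shuttle and proteasome partners of which 27 were tested, also moved in both directions. With AF 6 were higher and 10 lower, and with LB 8 and 11. In uninjected BMKO livers 10 were higher and 12 lower. Among them was Uba1, the main ubiquitin-activating enzyme, at 405.8 RPM against 113.9 RPM. With vehicle 2 were higher and 2 lower in BMKO. Rapamycin gave 6 higher and 2 lower in WT, with Nfe2l1, the gene of Nrf1, at 44.8 RPM against 36.2 RPM (adjusted p = 0.00129, limma), and 1 call in BMKO, for the higher ubiquitin gene Ubb. TSKO gave 5 and 7, RPKO 8 and 5, AZD8055 at dawn 7 and 5 and at dusk 10 and 5. With tunicamycin limma called 0 of the 27 for AF against NF, 2 of which had an unadjusted p under 0.05, and 3 higher and 2 lower for added AZD8055. Pomp, the maturation factor of the 20S core, was lower in RPKO (291.9 RPM against 397.6 RPM). The ubiquitin shuttle gene Ubqln1 was rhythmic in 11 of 16 arms, with amplitudes of 0.20 to 0.35, more arms than any proteasome subunit. The number of all genes called in that many arms was not counted.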

How the data were processed

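QuantSeq 3′ mRNA sequencing measured liver RNA in 282 libraries of 90 groups (arm and time), whose replicates the series' design text calls biological. The submitters' processing notes name STAR 2.7.3a, SAMtools and the build mm10 (GRCm38.p6). Which program counted the reads is not given in the sources used here. What the authors deposited is a scaled signal, gene reads divided by 1 factor per library, in 2 separately scaled tables. A step was found for each library among its smallest values and then refined. Dividing by it gave whole reads for 100% of values within 0.01 read, with RPKO left out of that share. In RPKO 197 genes, no member among them, left the step and were left out of its fits and of library sizes, and 7 rows of the second table held no values.

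Recovered reads were scaled to RPM with TMM factors (edgeR 4.0.16). limma 3.58.1 (R 4.3.3, with a mean-variance trend) tested log2(RPM + 0.5) for genes averaging 1 RPM or more: 12443 in the first table, 12296 in fits with RPKO and 12261 in the second table. Each model had a mean per arm and time. The fits held the feeding arms, the 6 NF arms of WT and BMKO, the AC, TSKO and RPKO arms, the AF arms with and without AZD8055, and the tunicamycin arms. Each arm had its own rhythm fit. Benjamini-Hochberg adjustment ran over all genes of a fit. The scripts were tested on simulated data. As an alternative, edgeR's quasi-likelihood test on the recovered reads called, over all genes and summed over the 12 daily mean comparisons, 49584 genes against 49718 with limma.

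The members and lists were chosen with earlier results of these data known. Named are Psmb5 to Psmb10, Psme1, Psme2 and Psmd11 in every comparison, up to 6 further members of smallest adjusted p per comparison and arm, and up to 4 genes of each other list. Others are named where they show a group or a count, chosen after their values were seen. The alternatives were DESeq2 1.42.0 size factors, pseudocounts of 0.1 and 2, no filter, edgeR, the replicate number as a block, leaving out each replicate number, the 3 libraries under 3 M reads or 2 LB libraries, and, chosen after seeing the data, leaving out the 12 libraries that correlated under 0.93 with their group.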

Additional observations from a re-analysis of the deposited data

Results flagged for a closer look

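The tunicamycin arms have 4 livers per time, which allows a check for a library far from the other 3 (a gap above Dixon's critical value, as a share of the group's range). Over 276 groups of 23 named genes 13 were found, and chance flags about 1 in 20 groups. In AF livers with tunicamycin Psmb7 at ZT 22 had a library at 106.5 RPM (others 95.35 to 96.09), Psmc4 at ZT 22 one at 49.83 RPM (47.31 to 47.68) and Psmc5 at ZT 22 one at 54.87 RPM (46.79 to 47.82). In the same arm Psmd6 at ZT 10 had one at 50.59 RPM (63.33 to 63.95), Psme3 at ZT 10 one at 24.16 RPM (32.94 to 33.52) and Psmg3 at ZT 16 one at 37.65 RPM (45.72 to 46.72). With AZD8055 added, Psmb6 at ZT 4 had one at 95.58 RPM (107.0 to 109.5), Psmc4 at ZT 4 one at 80.08 RPM (56.08 to 57.98) and Psmd13 at ZT 16 one at 111.7 RPM (83.08 to 86.96). In that arm at ZT 22 Psmb9 had one at 20.25 RPM (16.72 to 16.79) and Psmg4 one at 11.1 RPM (12.23 to 12.43). In NF livers with tunicamycin at ZT 16 Psmd6 had one at 54.44 RPM (47.75 to 48.66) and Psmg3 one at 23.6 RPM (40.42 to 44.56).

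The rapamycin response differed between genotypes, by the test of that difference, for 10 members (log2, BMKO minus WT, 18 libraries in each of 4 arms, limma). The differences were 0.9263 for Psma4, 0.5315 for Psmc1, -0.8638 for Psmg1, -0.7213 for Psmg2, -0.6986 for Psmg3 and -0.9893 for Psma5. They were -0.3529 for Psmb5, -0.6638 for Psmb7, -1.2534 for Psmb9 and -0.4248 for Psmd8. Adjusted p-values ran from 8.53e-04 (Psmg2) to 0.0470 (Psma5), and each of these 10 calls was lost without replicate 1.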

How the results depend on the processing

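Of the 206 daily mean calls 186 stayed under every alternative that kept all replicates and 126 under every alternative; for rhythms these were 54 and 4 of 67, for rhythm differences 4 and 0 of 5, and for response differences 6 and 0 of 10 (limma, or edgeR where named). The replicate numbers were no pairing by the rule used: deviations of same-numbered libraries correlated under 0.1 for some pair in every arm and comparison, with medians of up to 0.54 (BMKO with vehicle, times of 1 arm). In that arm no same-numbered pair lay below 0.047, and pairs of different numbers had a median of -0.41. In every arm the median over its times was higher for same-numbered pairs. It was 0.32 against -0.17 in uninjected NF WT, 0.29 against -0.18 with rapamycin in WT, and 0.0097 against -0.015 under AF. As any pair of low correlation fails the rule, it does not exclude variation shared by replicate number in any arm. With the number as a replicate block the rhythmic members became 16 in place of 8 (uninjected NF WT), 6 in place of 1 (WT with vehicle), 7 in place of 0 (BMKO with vehicle), 1 in place of 0 (uninjected BMKO), 3 in place of 0 (AZD8055 at dawn), 5 in place of 3 (AZD8055 at dusk) and 1 in place of 2 (AF). With DESeq2 size factors rhythms were 4 (WT with vehicle), 1 (uninjected BMKO) and 1 (AF), and the single daily mean call of AF with tunicamycin went to 0. This scaling moved the median log2 difference of the members by at most 0.08 in size. With no filter LB had 3 rhythms in place of 7 and AF 1, and a pseudocount of 2 gave uninjected BMKO 1. edgeR gave AF 1 rhythm, rapamycin in BMKO 3 daily mean calls in place of 5, and AZD8055 at dusk 1 rhythm difference in place of 0. Without the shallow libraries uninjected BMKO had 2 rhythms and rapamycin in BMKO 10 daily mean calls. Without the libraries far from their group BMKO with vehicle had 19 daily mean calls in place of 5, rapamycin in BMKO 1, and the tunicamycin AF comparison 0 rhythm differences in place of 1. Rhythms then were 8 in place of 5 (AC), 3 (WT with vehicle), 1 (uninjected BMKO) and 1 (BMKO with vehicle). Leaving out each replicate number in turn gave these ranges of daily mean calls: 13 to 19 for AZD8055 at dawn (22 with all), 1 to 12 for BMKO with vehicle (5), 9 to 13 for TSKO (16), 4 to 11 for rapamycin in WT (9), 0 to 3 in BMKO (5), 1 to 11 for the response difference (10), and 1 to 3 and 0 to 1 for tunicamycin with added AZD8055 (3) and under AF (1). Rhythm differences were 0 for AF (2), LB (1) and AF with tunicamycin (1), 0 to 2 for AZD8055 at dawn (1) and 0 to 1 for uninjected BMKO (0). Rhythms were 2 to 6 in uninjected NF WT (8), 0 in WT with vehicle (1), 0 to 1 with rapamycin (1), in BMKO with vehicle (0), under AF (2), in TSKO (6) and with AZD8055 at dusk (3), 0 to 3 in AC (5), RPKO (6), AF with tunicamycin (6) and AZD8055 at dawn (0), 0 to 6 under LB (7), 2 to 10 in NF with tunicamycin (11) and 2 to 9 with AZD8055 added (11). Fewer libraries per time lower the calls by construction, and the cause of the other changes was not tested. Without replicate 1 the WT rapamycin differences of Psma4 and Psma7 turned to 0.05 and 0.01. The response difference of Psma4 also turned, and ran from -0.0073 (without replicate 1) to 1.4434 over the fits that left out a replicate number. At the depth of the shallowest library, 0.706 M reads, 1 RPM is under 1 read, which limits the chaperones and Psmb9 there.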

Other observations

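Levels with and without tunicamycin are given side by side over all times, and their difference was not tested, since the authors scaled the tables separately. Under NF, the base chaperone Psmd9 had a median of 45.2 RPM with tunicamycin (36.5 to 55.6 RPM) and of 29.0 RPM without injection (21.8 to 34.3 RPM), so the ranges did not overlap. Under AF its medians were 48.2 and 24.1 RPM, again with ranges apart (34.7 to 57.1 RPM and 20.6 to 33.4 RPM). The chaperone Psmg3 had 41.7 RPM with tunicamycin and 22.7 RPM without under NF, with overlapping ranges. The α subunit Psma7 lay on the other side, at 178.6 RPM with tunicamycin (128.4 to 231.3 RPM) and 285.5 RPM without (234.8 to 337.9 RPM). The immune subunit Psmb8 had medians of 18.7 and 24.8 RPM, with overlapping ranges.

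After the mean of each arm and time was removed, the levels of members varied together only in part. Over the 234 libraries of the first table the median correlation (r, log2 levels) of the 1081 pairs of members was 0.11, with 90% of pairs from -0.44 to 0.60, and that of members with other genes was 0.02. Among the base ATPases the median r was 0.32, among 19S subunits 0.19 and among 20S subunits 0.07. The closest pairs were Psmg1 with Psma5 (0.82), Psmd14 with Psma3 (0.82) and Psmd3 with Psmd4 (0.82), the last of which had 0.66 over the 48 tunicamycin libraries. All pairs share libraries and depth, and these values are a description.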
